A study of Mus musculus with 2 samples.

Results

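Stat2, Stat3, Stat4, Stat5a, Stat5b and Stat6 encode signal transducers and activators of transcription (STATs), proteins that carry cytokine signals from the cell membrane to DNA. The genes were taken by symbol: every array probe whose RefSeq accession, without its version, maps to these 6 symbols was used, which gave 10 probes in 19 spots. They are 6 of the 20139 genes that the probes of the array name. Other members of the family were not analysed here. The arrays compare 2 cultures of C57BL/6 mouse bone marrow cells, each kept for 4 days in medium with 5% serum and induced to become myeloid-derived suppressor cells (MDSCs), myeloid cells of an immature kind known to hold back T cells. The GM-CSF + IL-6 culture received 40 ng/ml of the growth factor GM-CSF and 40 ng/ml of the inflammatory cytokine IL-6, and the GM-CSF ONLY culture received 40 ng/ml GM-CSF, so GM-CSF was common to both. Each condition had 1 RNA sample of a whole culture on 1 array, labelled as a biological replicate, so there is no spread between cultures and no p-value for any difference.

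STATs rest in the cytoplasm until a cytokine receptor brings Janus kinases (JAKs) together. The kinases phosphorylate a tyrosine near the end of the STAT, the STATs pair, and the pair enters the nucleus and binds DNA. IL-6 is known to act mainly through STAT3, GM-CSF through STAT5A and STAT5B, type I and III interferons through a complex that holds STAT2 and IRF9, IL-12 through STAT4, and IL-4 and IL-13 through STAT6. This switch works on protein that is already made, so an mRNA level is not a measure of STAT activity. STAT genes can themselves be transcriptional targets of cytokines.

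The DNA before the start sites of 3 members is printed to show which STAT-type and interferon-type motifs lie there, since Stat2 had the most negative log2 ratio of the 6 Stat3 is the factor that IL-6 is known for, and Stat4 is the other member with an interferon-type match. The 250 bases before each listed start of the 6 genes were searched on both strands for 3 motifs. For the genes other than Stat2 the listed starts lie inside the span of the gene. The windows of Stat3, Stat6 and the first Stat4 start run across the outer end of the gene. Those of Stat5a, Stat5b and the second Stat4 start lie inside the gene and do not reach it. GAAANNGAAA is the core of the interferon-stimulated response element that the STAT2 complex binds. TTCNNNGAA is the gamma-activated site of most STAT pairs, and TTCNNNNGAA is the wider spacing that STAT6 is known to prefer. The sequences are from RefSeq on GRCm38.p6, read 5′ to 3′ on the strand of the gene, in lower case with motif matches in capitals. Stat2 is chr10:128270248-128270497 on the plus strand, Stat4 is the window before its second listed start at chr1:52007990-52008239 on the plus strand, and Stat3 is chr11:100939541-100939790 on the minus strand.
Stat2: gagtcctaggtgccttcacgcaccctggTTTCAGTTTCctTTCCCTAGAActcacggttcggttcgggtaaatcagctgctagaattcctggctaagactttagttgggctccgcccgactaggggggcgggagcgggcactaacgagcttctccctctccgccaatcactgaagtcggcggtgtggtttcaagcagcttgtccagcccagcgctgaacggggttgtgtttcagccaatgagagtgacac
Stat4: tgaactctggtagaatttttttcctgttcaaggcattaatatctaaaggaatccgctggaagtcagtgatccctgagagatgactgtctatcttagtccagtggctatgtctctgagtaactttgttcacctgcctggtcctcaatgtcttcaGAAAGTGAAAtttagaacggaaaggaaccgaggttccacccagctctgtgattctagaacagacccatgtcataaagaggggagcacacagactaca
Stat3: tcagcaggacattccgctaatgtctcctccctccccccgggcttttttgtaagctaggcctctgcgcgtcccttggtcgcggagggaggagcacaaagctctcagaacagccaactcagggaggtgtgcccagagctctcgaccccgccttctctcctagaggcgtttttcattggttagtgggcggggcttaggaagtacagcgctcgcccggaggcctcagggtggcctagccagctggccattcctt
In the Stat2 window the response element core stood 222 to 213 bases before the start, as TTTCAGTTTC on the printed strand, where the opposite strand holds the motif, and a match to the STAT6-type spacing stood 210 to 201 bases before it. In the Stat4 window the response element core stood 97 to 88 bases before that start, as GAAAGTGAAA. The Stat3 window and the windows of Stat5a, Stat5b, Stat6 and the first Stat4 start held none of the 3 motifs, which means only that these letters are not in these 250 bases. Over all 32851 such windows in the table, 2.98% held GAAANNGAAA, 7.02% held TTCNNNGAA and 5.85% held TTCNNNNGAA. A match is a string of letters and was not tested as a binding site.

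The values below are processed spot signals of Agilent 1-colour (Cy3) arrays, scaled so that the 75th percentile of both arrays is the same, and the log2 ratio is GM-CSF + IL-6 minus GM-CSF ONLY. All 10 STAT probes were well above background on both arrays by the extraction software, and no spot was saturated. The error printed after ± is a technical SD, taken from the scatter of log2 ratios of 266 probes printed several times on the array scaled down by the root of how many spots the probe has. It covers spots of the same labelled RNA and neither labelling nor culture. The extraction software's own error model is wider, at 10% of the signal of a spot, which gives an error of 0.20 on a log2 ratio. A total of 13840 genes were measured on both arrays, with a median log2 ratio of -0.02. Signals of different probes are on different scales and are not ranked against each other.

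All 6 STAT genes had a lower signal in the GM-CSF + IL-6 culture than in the GM-CSF ONLY culture on the probe used for the gene, which is its brightest. The differences were small. Log2 ratios ran from -0.24 for Stat2 to -0.09 for Stat3, with a median of -0.11. Of all measured genes 56.2% had a log2 ratio below 0, and of the 8048 genes above the 75th percentile of signal, where all 6 STAT genes lie, 60% did, with a median of -0.03. None of the 6 genes reached 1.2-fold in either direction, against 5.97% of measured genes that were 1.2-fold or more lower and 6.37% that were 1.2-fold or more higher. Above the 75th percentile these shares were 2.42% and 1.89%. Likewise 0 of the 10 STAT probes reached it, against 6.3% of probes lower and 6.51% higher. Of the 10 probes, 8 had a log2 ratio below 0, against 55.5% of all probes with 1 symbol. None reached 2-fold, which 0.101% of genes did downwards and 0.282% upwards. The other 4 probes, which belong to Stat3, Stat5b and Stat6, lay on both sides of 0, with 2 lower and 2 higher, and each was within 2 technical SDs of 0. As the RNA is from whole cultures, fewer cells of a type that carries a transcript and less of it per cell cannot be told apart.

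**Figure D1:**
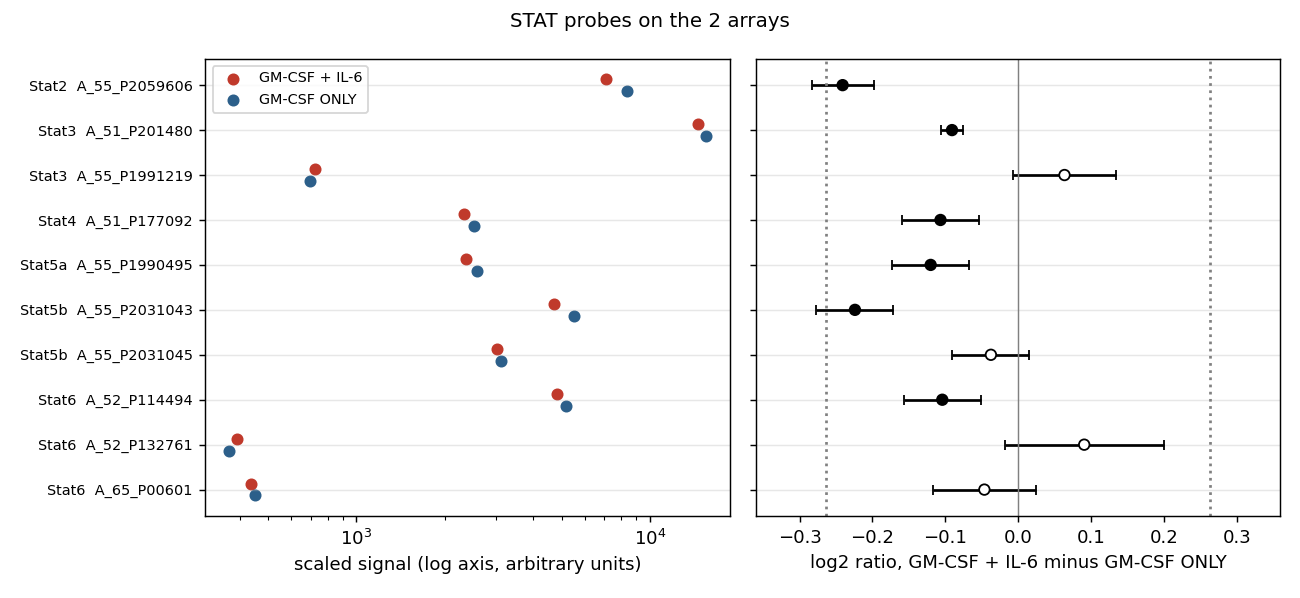
Scaled signal of the 10 STAT probes on each array (left, log axis, arbitrary units) and log2 ratio of GM-CSF + IL-6 minus GM-CSF ONLY (right). Bars are technical SDs, filled points mark the probe used for the gene, open points its other probes, and dotted lines mark 1.2-fold. All 6 filled points lie left of 0 and inside the dotted lines, and the 4 open points lie on both sides of 0.

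Stat2, whose protein joins IRF9 in the interferon-activated complex, had the most negative log2 ratio of the 6 genes. Its 1 probe gave a signal of 7081 in the GM-CSF + IL-6 culture, against 8368 in the GM-CSF ONLY culture. That is 1.18-fold lower with IL-6, a log2 ratio of -0.24 ± 0.04. The difference was 5.6 times its technical SD, and slightly more than the error of 0.20 that the software's model gives. Among the 1120 other genes within 0.5 of its log2 level, 38 (3.39%) had as low a log2 ratio. The 3 genes of like level with the nearest log2 ratio were Dhrs3, St8sia4 and Lzts3, each at -0.24, with differences from Stat2 of 0.00093, 0.0021 and 0.0031. With 2 arrays this likeness is a single value per gene.

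Stat3, the factor activated by IL-6 through the shared receptor chain gp130, was the member measured most precisely, because its probe A_51_P201480 is printed 10 times over the array. In the GM-CSF + IL-6 culture the 10 spots had a lowest signal of 12814, a median of 14488 and a highest of 14937. In the GM-CSF ONLY culture they had a lowest of 14344.5, a median of 15526 and a highest of 16035. At each of the 10 positions the GM-CSF + IL-6 spot was the dimmer, with log2 ratios from -0.16 to -0.05. The software marked 2 of the spots with IL-6 and 1 of those without as outliers, and these were left out. The remaining 8 spots with IL-6 ran from 14212 to 14937, and the remaining 9 spots without from 15031 to 16035. How many other probes printed several times separate in this way was not counted. Spots of an array share 1 labelled RNA, so the Stat3 ranges show the precision of the arrays and not of the cultures. The log2 ratio from the remaining Stat3 spots was -0.09 ± 0.02, or 1.06-fold lower with IL-6.

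**Figure D2:**
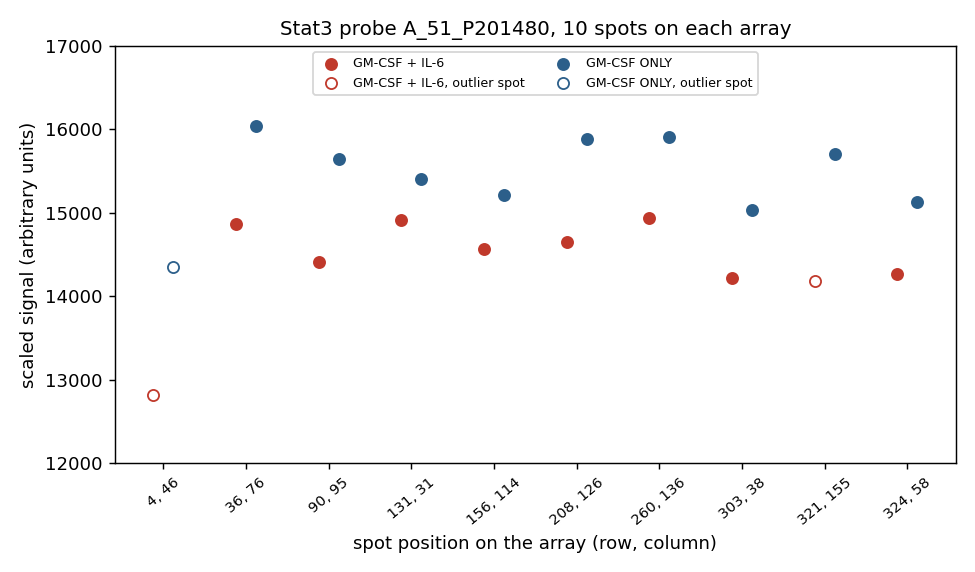
Scaled signal (arbitrary units, on an axis that does not start at 0) of the Stat3 probe printed 10 times, by the row and column of the spot on the array. Open points are spots marked as outliers. At each position the GM-CSF + IL-6 spot is below the GM-CSF ONLY spot, and the spots in row 4, near the edge, are the dimmest on both arrays.

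The size of the Stat3 difference was ordinary among genes of its level. Of 633 such genes, 28.3% had as low a log2 ratio. The surroundings of the spots differed too. The median log2 ratio of bright spots within 10 rows and 10 columns was -0.08 around the spot in row 4 and between -0.05 and 0.01 around the others. With the neighbours' median subtracted, the Stat3 log2 ratio was -0.07. The second Stat3 probe, A_55_P1991219, carries another RefSeq transcript (NM_011486, against NM_213659 for the first) and gave 725.0 with IL-6 and 693.7 without, a log2 ratio of 0.06 ± 0.07. The probes differed by 0.15, with a technical error of 0.07 on that difference. No direction can therefore be given for Stat3 that holds for both probes.

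Stat5a and Stat5b encode near-identical factors activated by GM-CSF, which both cultures received. Stat5a, with 1 probe, gave 2363 in the GM-CSF + IL-6 culture and 2568 in the GM-CSF ONLY culture, a log2 ratio of -0.12 ± 0.05. For Stat5b the brighter probe, A_55_P2031043, gave 4721 with IL-6 and 5513.5 without, which is 1.17-fold lower, a log2 ratio of -0.22 ± 0.05. Of 1396 genes of like level, 4.37% had as low a log2 ratio as this Stat5b probe, and for Stat5a the share was 22.3%. The second Stat5b probe, A_55_P2031045, carries the same accession and gave 3019 with IL-6 and 3099 without, a log2 ratio of -0.04 ± 0.05. The Stat5b probes differed by 0.19, with a technical error of 0.07, so the size of the Stat5b difference depends on the probe. The probe sequences were not used here, so whether a Stat5b or Stat5a probe also binds the transcript of its near-identical neighbour was not tested. Stat5b, Stat5a and Stat3 lie next to each other on mouse chromosome 11 in assembly GRCm38.p6.

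Stat4 transmits IL-12 signals, best known in T and NK cells. Its 1 probe gave 2328 with IL-6, against 2507 without, a log2 ratio of -0.11 ± 0.05, and 26.4% of genes of like level were as low. Stat4 was thus well above background in both cultures. Among T and NK cell markers, 11 of 14 were measured, with 5 higher and 6 lower, while 56.2% of all measured genes lay below 0. These markers had a median of -0.01 and a summed signal of 17962 with IL-6 against 16775 without. Cd4 and Nkg7 make up most of that sum, Cd4 with 6106 with IL-6 and 5451 without and Nkg7 with 7766 with IL-6 and 7049 without. The other Cd4 probe was dim, with 33.2 with IL-6 and 31.6 without. The NK and T markers Ncr1, Klrb1c and Eomes did not pass the background call on both arrays. Cd3e gave 1567 with IL-6 and 1581 without, and Lck 900.0 with IL-6 and 928.4 without. Cd2 gave 714.0 with IL-6 and 825.5 without (-0.21 ± 0.07), with -0.12 on its other probe, and Prf1 gave 578.1 and 576.3. Several other T cell markers were dim: Cd3d gave 154.0 with IL-6 and 179.2 without, Cd3g 51.4 and 57.1, and Cd8a 22.8 and 21.9. The part of T and NK cells in the Stat4 signal was not tested.

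Stat6, the factor of IL-4 and IL-13, has 3 probes with the same accession. The brightest, A_52_P114494, gave 4832 with IL-6 and 5194 without, a log2 ratio of -0.10 ± 0.05, and 27.2% of genes of like level were as low. A_52_P132761 gave 392.8 with IL-6 and 368.9 without, a log2 ratio of 0.09 ± 0.11. A_65_P00601 gave 437.1 with IL-6 and 451.4 without, a log2 ratio of -0.05 ± 0.07. The Stat6 probes thus lay on both sides of 0, spanning 0.19 with a technical error of 0.12.

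Ordered by log2 ratio the genes ran Stat2, Stat5b, Stat5a, Stat4, Stat6 and Stat3. The only step larger than its technical error was that between Stat5b and Stat5a, at 0.10 with an error of 0.07. Neighbours within the other steps, at 0.02 or less, did not differ beyond their spot error. A distance of 3 technical SDs from 0 was passed by 3 of the 6 genes, Stat2, Stat3 and Stat5b, all downwards. Of all measured genes 9.04% lay as far below 0, and of those above the 75th percentile of signal 13.1% did. The technical SD covers spots alone, and the cause of these shares was not tested. The second probes of Stat3 and Stat5b lay within 2 technical SDs of 0.

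**Figure D3:**
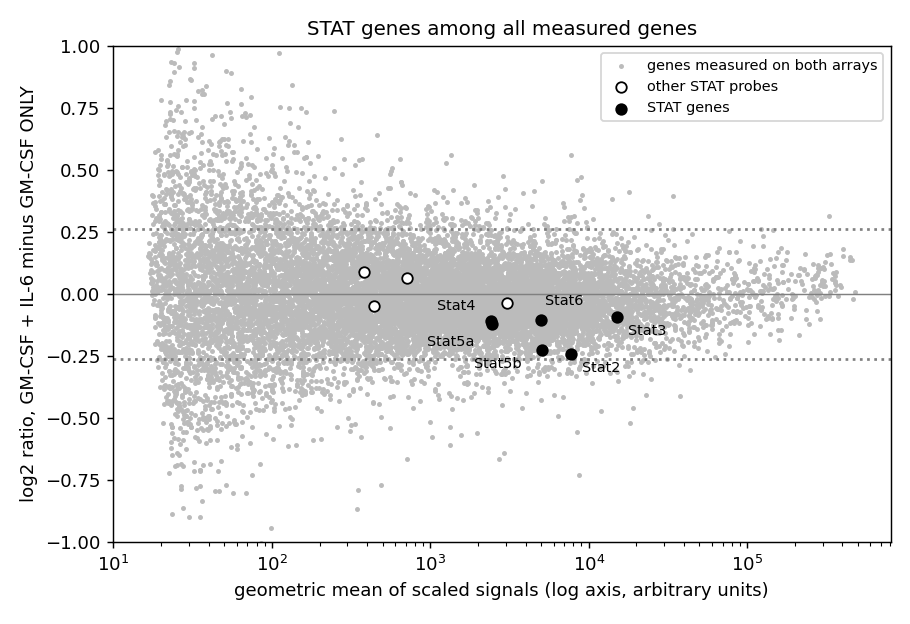
Log2 ratio of GM-CSF + IL-6 minus GM-CSF ONLY against the geometric mean of the scaled signals on both arrays (log axis, arbitrary units) for 13840 genes in grey, STAT genes as filled points and their other probes as open points. Dotted lines mark 1.2-fold, and 53 genes lie beyond the plotted range. The 6 STAT genes lie below 0 within the cloud, with Stat2 and Stat5b in its lower part, where 3.39% and 4.37% of genes of like level are as low.

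Receptors and kinases that act before the STATs lay on both sides of 0. Of 34 receptor genes 32 were measured, of which 11 lay above 0 and 21 below it, the median log2 ratio being -0.03. The share of all measured genes below 0 was 56.2%. Only Prlr passed 1.2-fold upwards, and Ghr and Il10ra did so downwards, at 0.38 ± 0.11, -0.48 ± 0.24 and -0.26 ± 0.05. Of all measured genes, 6.37% were 1.2-fold or more higher and 5.97% were 1.2-fold or more lower. Prlr and Ghr lay in the lowest 25% of signal. Il10ra, at -0.263234, barely passed the limit, which is a log2 ratio of 0.263034 in size. Il6ra, the IL-6 binding chain, gave 10216 with IL-6 and 11869 without (-0.22 ± 0.04), and Il6st, which encodes gp130, gave -0.08 ± 0.07. The GM-CSF receptor genes gave -0.06 ± 0.04 for Csf2ra and 0.04 ± 0.04 for Csf2rb, whose other probe gave 0.12. Ifnar1 and Ifnar2, of the type I interferon receptor before STAT2, gave -0.20 ± 0.05 and -0.10 ± 0.04, but the other Ifnar1 probes gave 0.03 and -0.06. Il4ra, before STAT6, gave -0.11 on 1 probe and 0.04 on its other, and Il12rb1, before STAT4, gave -0.15 and 0.24. The other probes of Ifnar1, Il4ra and Il12rb1 were much dimmer. With IL-6 they gave 160.5 and 222.0 for Ifnar1, 283.2 for Il4ra and 95.1 for Il12rb1, against 2160, 1364 and 944.2 on the brightest probes. The ends of the list outside the lowest 25% of signal were Csf3r, the G-CSF receptor, at 0.11 and Il10ra, of the IL-10 receptor, at -0.26. Of the 4 JAK genes, Jak1 gave -0.10, Jak2 -0.05 and Tyk2 -0.02, while Jak3 gave 0.12 on 1 probe and 0.09 on its other.

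Genes that restrain STATs were mostly lower by small amounts, with 17 of 20 measured below 0, 3 above it and a median of -0.07. Of all measured genes 56.2% lay below 0. Some of the 17, among them Socs2 and Ptpn6, were within their technical SD of 0. The feedback inhibitors split: Socs3, which blocks gp130, gave 21860 with IL-6 and 19298 without (0.18 ± 0.04) and Cish, which restrains STAT5, gave 0.09 ± 0.04, whereas Socs1 gave -0.18 ± 0.05 and Socs2 -0.01 ± 0.02. Pias4, a SUMO ligase for STATs, was highest at 0.29 ± 0.07 and Usp18, which dampens interferon receptor signalling, lowest at -0.29 ± 0.05. Pias1 gave -0.05 on 1 probe and 0.04 on each of its others, the phosphatase gene Ptpn6 -0.03, and Pias3, named for its binding to STAT3, was not well above background on either array. Of 8 partners and coactivators, 6 were lower, with a median of -0.11. Among them Irf9, the partner of STAT2, gave 4983 with IL-6 and 5577 without (-0.16 ± 0.05), Jun gave 0.19 and the acetyltransferase gene Ep300 -0.27.

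Genes known as targets of each factor were set beside the factor's own mRNA. All 25 targets of the STAT2 complex were lower with IL-6, 15 of them by 1.2-fold or more. Of all measured genes 56.2% were below 0 and 5.97% were 1.2-fold or more lower. The median was -0.29, in a range from -0.67 for Ifi44 to -0.07 for Ifi35. This list shared Usp18 with the inhibitors. Its members were known from earlier results of these data to be lower, so its counts were fixed in advance and are a description only. The 22 measured STAT3 targets had a median of -0.04, with 8 above 0 and 14 below it. They ran from Pim1, a survival kinase gene, at 0.37 ± 0.04 (7764 with IL-6 and 6026 without) to Fgl2 at -0.24 ± 0.05. The 15 STAT5 targets had a median of 0.02, with 9 above 0 and 6 below it, from Pim1 to Bcl6, a transcriptional repressor gene, at -0.27 ± 0.05. The 21 measured STAT6 targets had a median of 0.04, with 11 above 0 and 10 below it, from the chemokine gene Ccl24 at 0.41 ± 0.07 to Retnla, a marker of alternative activation, at -0.46 ± 0.05. The 7 STAT4 targets had a median of -0.09, with 2 higher and 5 lower, and those outside the lowest 25% of signal ran from Hlx at 0.06 to Il18r1 at -0.12, whose other probe gave 0.16. Several lists share genes: Pim1 and Socs3 stand under both STAT3 and STAT5, and Il4ra under both STAT3 and STAT6.

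**Figure D4:**
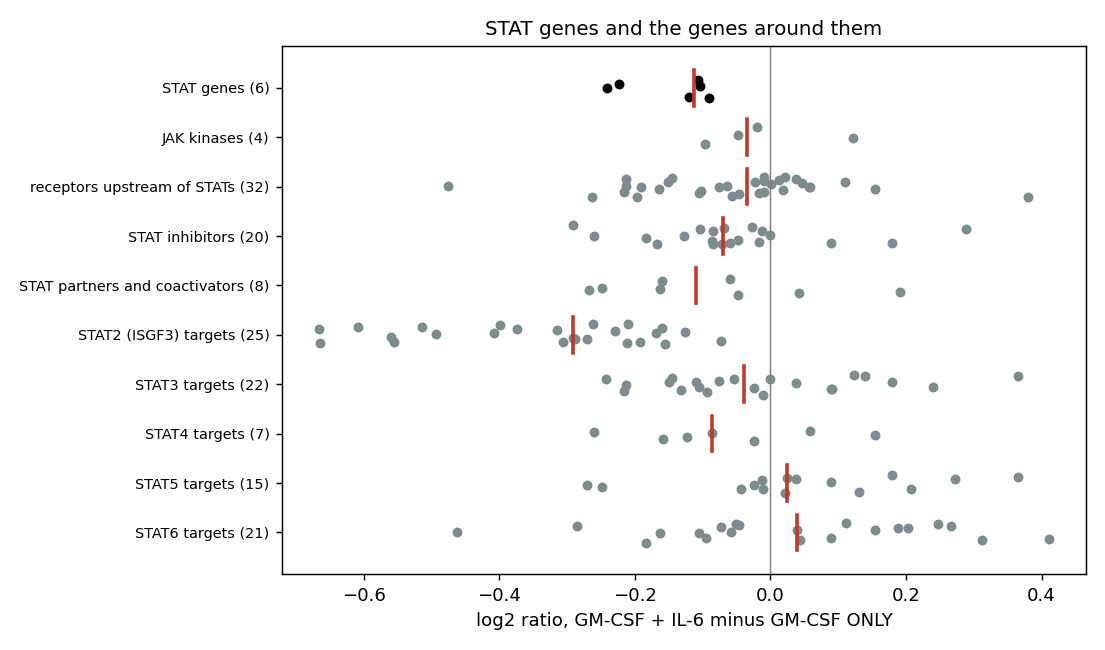
Log2 ratio of GM-CSF + IL-6 minus GM-CSF ONLY for each gene (points) of the STAT family and of lists of genes around it, with the number measured in brackets and the median as a red bar. The STAT genes have a median of -0.11, and the STAT3, STAT5 and STAT6 targets lie on both sides of 0. Targets of the STAT2 complex, known beforehand from these data to be lower, lie wholly below 0 with a median of -0.29.

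Of 9 marker genes of the labelled cell type 7 were measured, 5 higher and 2 lower with IL-6, with a median of 0.09. S100a8, of a calcium-binding protein abundant in MDSCs, gave 378143 with IL-6 and 355394 without (log2 ratio 0.09 ± 0.04). Itgam, the CD11b chain, gave 30894 with IL-6 and 28465 without (0.12 ± 0.04, with 0.22 and -0.05 on its other probes), and Arg1, which depletes arginine, gave 3588 with IL-6 and 3737 without (-0.06 ± 0.05). Nos2, which makes nitric oxide, was the lowest of the list at -0.31 ± 0.04 and Cybb, an oxidase subunit gene, the highest at 0.20 ± 0.04, while S100a9 gave 0.14 and Ly6c1 0.01, with -0.13 on its other probe. Monocyte and macrophage markers were lower in 9 of 11 measured genes, with a median of -0.17 and a summed signal of 82817 with IL-6 against 96533 without. Csf1r, the M-CSF receptor gene, carried most of that sum, with 57302 with IL-6 and 68232 without (-0.25), and its other probes gave -0.20 and 0.26. All 14 neutrophil markers were measured, with 8 higher, 6 lower, a median of 0.04 and a summed signal of 2045370 with IL-6 against 1967890 without. These sums add probes of different scales, so the brightest probes weigh most. Dendritic cell markers were lower in all 8 measured genes (median -0.12), B cell markers in 7 of 8 (-0.06) and megakaryocyte markers in 6 of 8 (-0.15). Mast cell and basophil markers were higher in 8 of 9 (0.20) and erythroid markers in 3 of the 4 measured (0.21). For comparison, 56.2% of all measured genes lay below 0. Some of these markers were within their technical SD of 0, such as Clec9a at -0.11 ± 0.24 and Ms4a1 at -0.01 ± 0.05. Among the erythroid genes only Tfrc lay outside the lowest 25% of signal, at 0.16 ± 0.02, with -0.20 and 0.23 on its other probes. Ly6g and Ly6c2 were not used. The part of these differences in the STAT signals was not tested.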

How the data were processed

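RNA of 2 cultures was hybridised, with Cy3 as the label, on 1 Agilent array per culture, both on the same slide. Per the file headers, the deposited intensity of each spot was extracted with Agilent Feature Extraction 10.7.1.1, with background subtraction and detrending and no scaling between arrays. The deposited matrix of the authors holds log2 values that are quantile-normalized, as their sorted columns differ by at most 0.00136. Its scale and direction follow from a correlation of 0.99998 with the log2 intensity of each array. It is not centred by gene (both medians are 5.10), and the software behind it is not given in the sources used.

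The value used was log2 processed intensity minus the array's own 75th percentile, controls excluded (486.2 with IL-6 and 549.7 without). Printed signals were set to a common percentile. Outlier spots were dropped, and a probe's remaining spots averaged. A probe was measured where at least 50% of its spots were well above background. Each gene took its brightest probe measured on both arrays. Probes were named by RefSeq accession through a GRCm38.p6 table (26571 probes with 1 symbol). Technical SDs were pooled over 266 probes with at least 5 usable spots, in 6 bins of level. The number of arrays, 1 per condition, limits the precision, and no test was possible. Named genes were all members, a set of pathway genes by name, the highest and lowest of each pathway list outside the lowest 25% by level, and 3 genes nearest to Stat2. Prlr, Ghr, all named cell type markers and the shared or undetected markers were named after their values were seen. Members and lists were chosen with earlier results of these data known. The calculation was tested on simulated data. Tools were Python 3.11.15, numpy 2.4.6, pandas 2.3.3, matplotlib 3.10.9, R 4.3.3 and limma 3.58.1.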

Additional observations from a re-analysis of the deposited data

How the results depend on the processing

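Alternatives were normexp (offset 50), cyclic loess, quantile normalization, centring on the median, the authors' matrix, outlier spots kept, a looser background call, no filter on dim probes, the lowest 25% left out, the median over probes and, chosen after seeing the data, subtraction of neighbouring spots. Of 249 recomputed values, 8 moved by more than the technical SD. The other 241 moved by less or, for the counts past 1.2-fold, did not change. The looser background call and the settings on dim probes could not change the STAT log2 ratios, as these filters do not alter a probe's value. Keeping outlier spots changed only the Stat3 ratio among the STAT genes. The STAT gene median stayed between -0.14 and -0.09, and all 6 genes stayed below 0 in every setting, as did Stat2, from -0.26 to -0.22. No STAT gene or probe reached 1.2-fold in any of them. Normexp on signals without detrending gave -0.18 for Stat5a, 0.12 for the second Stat5b probe, 0.11 for Stat6 probe A_65_P00601 and 0.021 for the STAT4 target median. These Stat5b and Stat6 probes both lie in column 163 of 164, and the cause was not tested. By less than the technical SD, 2 further medians changed sign. The STAT6 target median went from 0.039 to -0.0036 with the lowest 25% left out. The JAK median went from -0.034 to 0.0017 with normexp. The median over probes gave -0.014 for Stat3, -0.13 for Stat5b and -0.046 for Stat6, since it takes in the dimmer probes. Subtracting neighbouring spots gave -0.067 for Stat3. No paired analysis was possible because the cultures, 1 per condition, form a single comparison. Signal over background did not limit the STAT probes, but the lack of a second culture does.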
